A study of Mus musculus with 25 samples.

Results

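The cytochrome P450 genes of families 1 to 4 are described here in mouse liver, other than 8 genes left out of the set (Cyp2a5, Cyp2e1, Cyp2b9, Cyp2b10, Cyp2b13, Cyp2c37, Cyp2c50 and Cyp2c54). A gene was a member when a probe set carried its symbol alone and the symbol was a P450 name of family 1, 2, 3 or 4. This gave 58 of the 65 such P450 genes on the array, out of 19938 genes with a probe set of their own. Each of the 58 was measured by 1 probe set. The filter on dim genes, a mean of 3.33 log2 over all arrays, left 43 members for testing among 15951 genes.

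RNA from frozen liver was measured on 25 Affymetrix arrays, 1 sample each, in 6 groups of FVB;129 mice. The mice labelled as lacking Rb, p53 or both carried Cre recombinase driven in hepatocytes by the albumin promoter, with loxP sites in the genes concerned. How complete the deletion was, and which liver cells kept these genes, was not measured here. Groups said below to lack a gene are named by their genotype labels. Whether the wild-type mice also carried Cre is not given in the sources used here. The untreated groups were 3 wild-type samples (WT) and 3 samples lacking both genes (DKO), also recorded with an age of 14 days. They are labelled as having no treatment where the series text speaks of saline. The groups given diethylnitrosamine (DEN), a hepatocarcinogen, at 20 mg/kg at 14 days of age were 5 WT, 5 p53KO, 4 RbKO and 5 DKO samples, taken 24 h later. The sexes of the mice are not given in the labels.

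P450 enzymes are heme proteins of the endoplasmic reticulum that insert 1 atom of oxygen into their substrates, with electrons passed on by P450 reductase and cytochrome b5. Families 1 to 3 oxidize many drugs, carcinogens and steroids, and family 4 hydroxylates fatty acids and eicosanoids. In hepatocytes their genes are controlled by ligand-activated receptors, among them AHR (Cyp1a), CAR and PXR (Cyp2b, Cyp2c and Cyp3a) and PPARalpha (Cyp4a), and by liver factors such as HNF4alpha. Many lie in clusters of close paralogs, so probes of 1 member can pick up RNA of a neighbour; this holds above all for the Cyp2c, Cyp2d, Cyp3a, Cyp4a and Cyp4f members below.

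After DEN, the Cyp2d genes held more of the calls against WT than any other subfamily (5 in DKO, 3 in RbKO and 2 in p53KO), so the stretch their promoters have in common is shown first. RefSeq (GRCm38.p6) gave a promoter for 47 of the 58 members, and for 5 of the 9 Cyp2d members. The longest run that all 5 hold in the 120 bases before the start of transcription, with 1 position left free, was CAGAGNACAAAG. Each line below gives 30 bases read 5′ to 3′ along the gene from that run, which is in capitals.
Cyp2d10 (chr15:82407225-82407254, minus strand): CAGAGGACAAAGggcaaccctggcactcct
Cyp2d9 (chr15:82452320-82452349, plus strand): CAGAGGACAAAGggcaaccctggcactcct
Cyp2d11 (chr15:82394065-82394094, minus strand): CAGAGAACAAAGggcaaccctggcactcct
Cyp2d40 (chr15:82764213-82764242, minus strand): CAGAGGACAAAGggcaacctggacactcct
Cyp2d26 (chr15:82794281-82794310, minus strand): CAGAGAACAAAGtgcagccttcccctcctc

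The run began 60 bases before the start in Cyp2d10, 57 in Cyp2d9, 72 in Cyp2d11, 120 in Cyp2d40 and 65 in Cyp2d26. A TATAA followed it in each, 31 bases after its first letter in 4 of them and 36 in Cyp2d26. The RefSeq genes of Cyp2d10 and Cyp2d26 reach further upstream than the start used here. Searched on both strands over 300 bases around the start, CAGAGNACAAAG was found in 5 of the 47 members with a promoter, the 5 above, and in 0.07% of all 32851 promoters. TATAA was found in 26 members and in 24.9% of all promoters. Both were chosen after the sequences had been seen, and the first was taken from the promoters it was found in. With the run aligned and no gaps allowed, Cyp2d10 and Cyp2d9 were equal at 87.2% of 117 positions and Cyp2d10 and Cyp2d26 at 35.7% of 115. TATAA begins 31 bases after the first letter of the run in Cyp2d10 and 36 in Cyp2d26. From there on this pair was out of step, so the 35.7% can understate how alike these promoters are.

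The 120 bases before the start of Cyp2d9 and of Cyp1a2, the member that fell most after DEN, are given in full for comparison, with that run and TATAA in capitals.
Cyp2d9 (chr15:82452257-82452376, plus strand): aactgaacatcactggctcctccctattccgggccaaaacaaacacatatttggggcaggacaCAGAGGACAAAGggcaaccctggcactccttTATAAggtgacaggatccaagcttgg
Cyp1a2 (chr9:57683656-57683775, minus strand): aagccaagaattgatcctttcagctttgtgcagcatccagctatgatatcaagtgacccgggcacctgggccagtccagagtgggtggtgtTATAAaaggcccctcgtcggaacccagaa

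GCGTG, the core letters of the AHR site, was found in 11 members, Cyp1a1 and Cyp1b1 among them but not Cyp1a2, and in 32.4% of all promoters. The direct repeat that PPARalpha binds, with 1 free base in the middle, was found in 0 members and in 0.0396% of all promoters. Cyp4a10, Cyp4a14 and Cyp4a31 were among the members without a promoter and were not searched, so the 0 says nothing about the Cyp4a genes.

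The array names place the samples in 3 sets of 16, 4 and 5 arrays, and set 1 alone holds all 6 groups. Differences below are therefore from a fit in limma with a term for the set, in log2 units with the SE, and a gene is called where its p adjusted over the 15951 genes was under 0.05. Values of single samples are printed without adjustment for the set, so overlap between groups, or its absence, also carries set differences. The share of all genes without overlap is not given, so overlap is a description and no test. Nothing in the labels says whether samples of a group came from separate litters, and p-values then measure only how far these samples spread, which may be technical. Rb1 signal averaged 5.47 in untreated WT and 5.82 after DEN in RbKO, with RbKO at 0.08 (SE 0.17, adjusted p = 0.83) against WT after DEN; whether its probes lie in the deleted part is not given, so it is no check of the labels. Hepatocyte markers (Alb, Ttr, Apoa1, Apob, Cps1 and Tat) averaged 11.61 to 12.27 log2 on every array. Xist, expressed in females, was above the Y-linked gene Kdm5d on 8 of 25 arrays: 2 of 3 untreated WT, 0 of 3 untreated DKO, 0 of 5 DEN WT, 2 of 5 DEN p53KO, 2 of 4 DEN RbKO and 2 of 5 DEN DKO. Several liver P450 genes differ between the sexes in adult mice, so values with Xist as a covariate are given where a call ends. In whole liver, fewer cells of a type and less RNA per cell cannot be told apart.

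**Figure D1:**
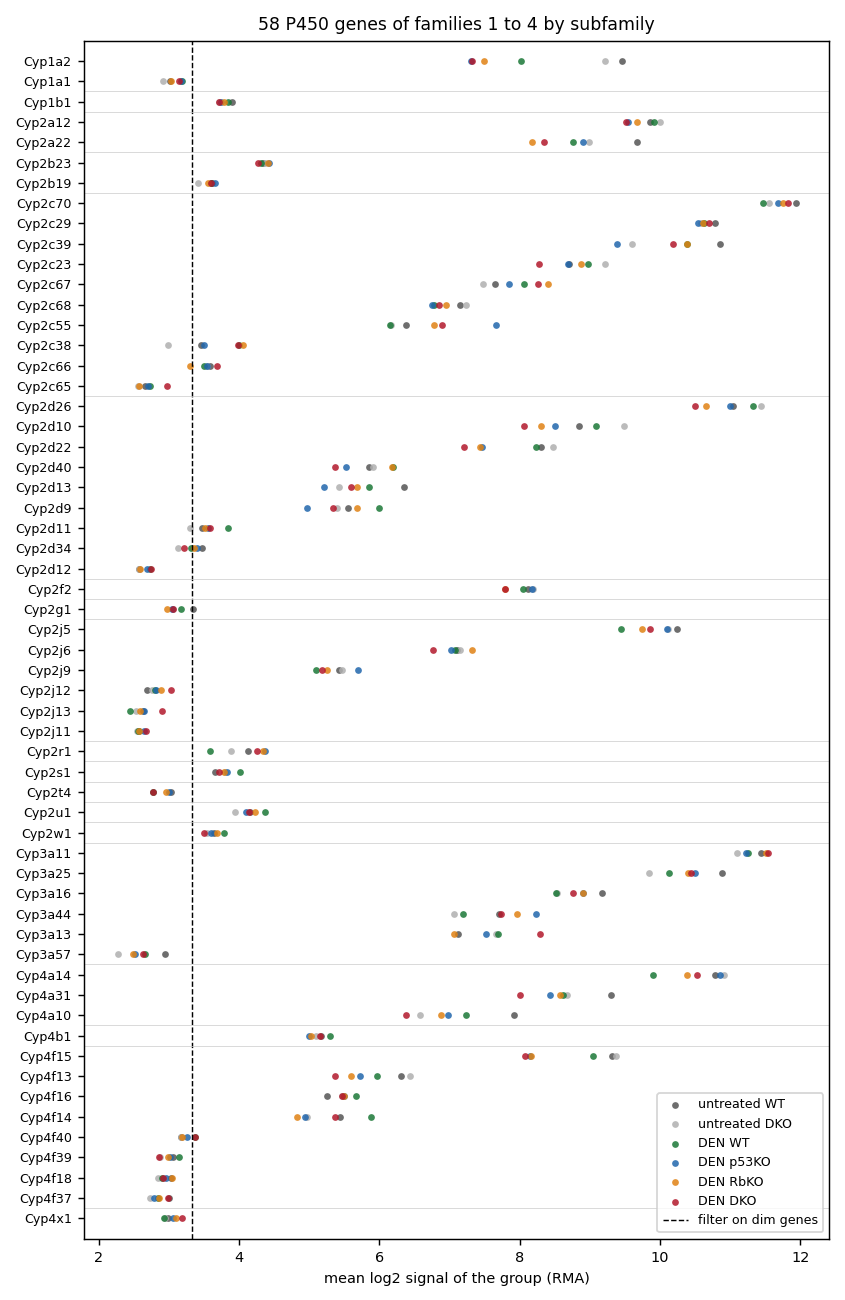
Mean log2 signal of the 58 P450 genes in each of the 6 groups, 1 row per gene, ordered by subfamily; colours are groups and the dashed line is the filter on dim genes at 3.33. Levels of different probe sets cannot be set against each other, and the plot is read along a row: the widest rows, such as Cyp1a2, separate untreated from DEN groups, while Cyp2c29 stayed between 10.31 and 10.85 on all arrays.

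The main liver subfamilies gave clear signal. Cyp2c70, which makes muricholic acids from bile acids, ran from 10.78 to 11.97 over the 25 arrays, Cyp3a11, the main PXR-inducible Cyp3a of mouse liver, from 10.72 to 11.75, and Cyp2c29, an epoxygenase of arachidonic acid, from 10.31 to 10.85. Cyp2a12 (9.19 to 10.13), Cyp2j5 (8.35 to 10.47) and Cyp2f2, which activates naphthalene (7.17 to 8.90), were measured on every array and were called in 0 of the 9 comparisons. The 15 members below the filter were Cyp1a1, Cyp2c65, Cyp2d12, Cyp2d34, Cyp2g1, Cyp2j11, Cyp2j12, Cyp2j13, Cyp2t4, Cyp3a57, Cyp4f18, Cyp4f37, Cyp4f39, Cyp4f40 and Cyp4x1. Cyp1a1, the best known AHR target, was among them and ran from 2.73 to 3.47 on all arrays, treated or not. Of the 43 members above the filter, 25 were called in at least 1 of the 9 comparisons, 58 calls in all, and 18 in none.

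**Figure D2:**
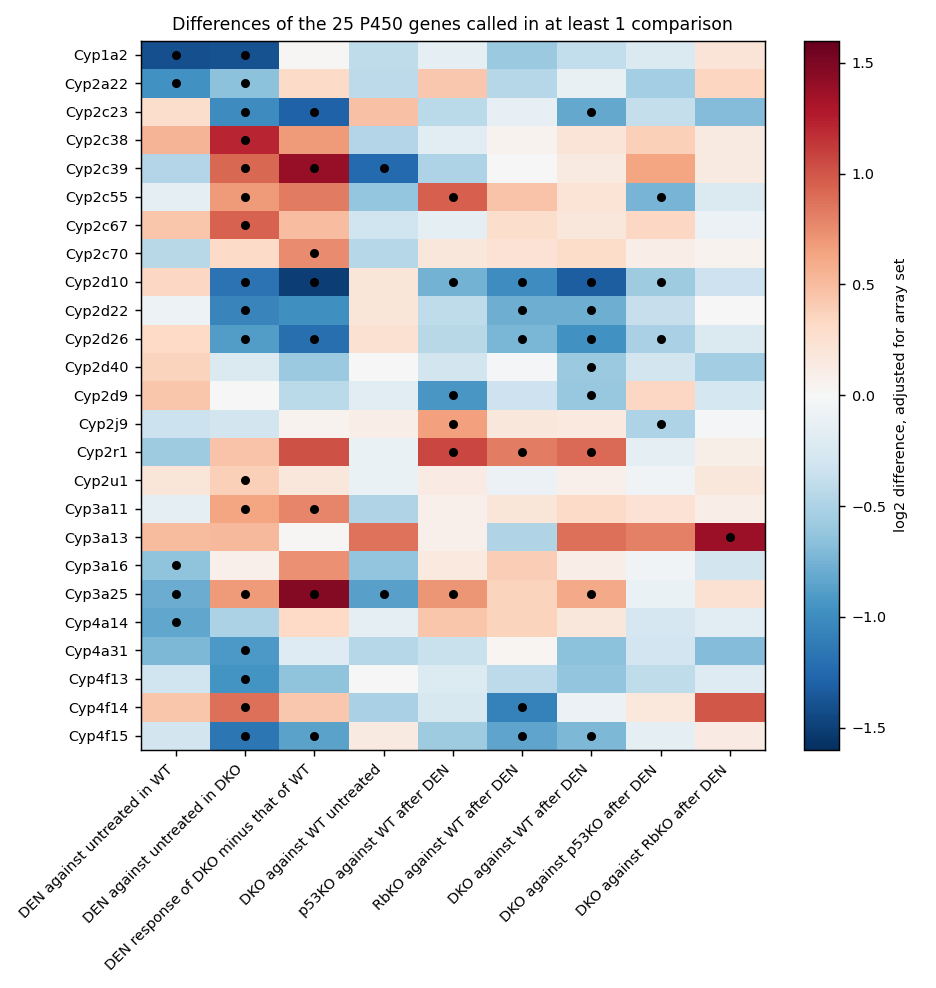
Log2 differences, adjusted for array set, of the 25 P450 genes called in at least 1 of 9 comparisons; blue is lower and red higher in the group named first, and a dot marks an adjusted p under 0.05. The Cyp2d genes and Cyp4f15 are blue in the columns that set DEN DKO and DEN RbKO against DEN WT, and Cyp1a2 is dark blue in both columns of DEN against untreated.

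DEN in WT liver was followed by lower Cyp1a2, Cyp2a22, Cyp3a16, Cyp3a25 and Cyp4a14, and no member was called higher. Cyp1a2, which oxidizes aromatic amines and caffeine in the hepatocytes around the central vein, differed most, at -1.41 log2 (SE 0.40, adjusted p = 0.0465), 2.66-fold lower. The 5 called members of 43 make 11.6%, where 3.99% of all genes were called (2.08% higher, 1.91% lower), and the members' median difference was -0.08 against 0.01 over all genes. All 7 Cyp2d members tested and all 9 Cyp2c members tested stayed uncalled in this fit, though not in set 1 alone.

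Cyp1a2 read 9.66, 9.69 and 9.05 in the untreated WT samples and 7.88, 8.38, 7.96, 6.31 and 9.57 after DEN. Of the DEN samples, 4 lay below every untreated one, and replicate 5 lay among them. The same sample stood in the untreated range for Cyp2a22, where untreated WT gave 9.77, 9.30 and 9.95 and DEN WT 8.56, 8.25, 8.21, 8.87 and 9.92, and above it for Cyp4a10, a fatty acid hydroxylase that was not called (-0.73, SE 0.27, adjusted p = 0.141), with 8.51 against 6.30 to 7.21 in the other 4 and 7.61 to 8.20 in untreated WT. Cyp2a22 differed by -0.97 (SE 0.19, adjusted p = 0.00276).

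The Cyp3a pair did not overlap between the groups. Cyp3a25 read 10.76, 10.51 and 11.37 in untreated WT and 9.99, 10.04, 10.00, 10.18 and 10.42 after DEN, a difference of -0.79 (SE 0.17, adjusted p = 0.00619). Cyp3a16, a Cyp3a form known from young mouse liver, read 9.36, 8.83 and 9.32 untreated and 8.73, 8.50, 8.63, 8.31 and 8.44 after DEN, a difference of -0.65 (SE 0.18, adjusted p = 0.039). Cyp4a14, a PPARalpha target that hydroxylates fatty acids, differed by -0.83 (SE 0.21, adjusted p = 0.0244), but its samples overlapped: 10.87, 11.14 and 10.36 untreated, and 10.57, 10.30, 10.67, 8.82 and 9.17 after DEN, the last 2 being the samples of set 2.

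Leaving out untreated WT replicate 1 ended the calls of Cyp1a2 (adjusted p = 0.161), Cyp3a16 (0.229) and Cyp2a22 (0.0559), and leaving out replicate 2 that of Cyp4a14 (0.119). Cyp1a2 lost its call without any of 7 of the 8 samples, Cyp3a16 and Cyp4a14 without any of 5, and Cyp2a22 without that 1. Members called numbered 1 and 3 without untreated WT replicates 1 and 2, and 3 without DEN WT replicate 2 or 4. Set 1 alone gave 2 members higher, Cyp2c67 (0.98, adjusted p = 0.00415) and Cyp4f16 (0.58, 0.0449), and 9 lower, with Cyp4a14 at -0.49 (0.0396), Cyp3a16 not called (-0.47, 0.174), and Cyp2c39 (-0.65), Cyp2d13 (-1.12), Cyp2d22 (-0.73), Cyp4a10 (-1.02) and Cyp4f15 (-0.62) added; the members' median there was 0.01. With Xist as a covariate, Cyp1a2 (adjusted p = 0.116) and Cyp3a16 (0.185) were not called. Among pericentral hepatocyte markers, 3 of 6 were also lower, Glul at -1.23 (SE 0.17), Oat at -1.23 (SE 0.20) and Slc1a2 at -2.03 (SE 0.33), the list averaging 6.47 to 7.04 log2 on the DEN WT arrays and 7.26 to 7.93 on the untreated WT arrays; its part in the P450 values was not tested.

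In DKO liver, DEN was followed by changes in 17 of 43 members, 8 higher and 9 lower. Lower were Cyp1a2, Cyp2d10, Cyp4f15, Cyp2d22, Cyp2c23, Cyp4f13, Cyp4a31, Cyp2d26 and Cyp2a22; higher were Cyp2c38, Cyp2c67, Cyp2c39, Cyp4f14, Cyp2c55, Cyp3a25, Cyp3a11 and Cyp2u1. These are 39.5% of the members tested, where 21% of all genes were called (4.49% higher, 16.5% lower). Centring arrays on their medians gave 6 higher and 10 lower, and centring on the genes tested 10 and 8. These settings shift the median of all genes by -0.10 and 0.11.

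The falls in Cyp2d10, Cyp2d22, Cyp2d26 and Cyp4f15 left no overlap between treated and untreated DKO samples. The same held for Cyp1a2, Cyp2a22, Cyp2c23 and Cyp4a31, and of the called falls only that of Cyp4f13 overlapped. Lack of overlap thus does not set the Cyp2d genes apart. All untreated DKO samples were of set 1, while 2 of the DEN samples were of set 3. Cyp2d10, a member of the mouse gene family related to human CYP2D6, which oxidizes many drugs, read 9.63, 9.54 and 9.29 untreated and 8.44, 8.43, 8.30, 7.71 and 7.44 after DEN, a difference of -1.18 (SE 0.17, adjusted p = 3.13e-05). Cyp4f15, of the subfamily that hydroxylates leukotrienes and fatty acids, read 9.40, 9.44 and 9.28 and then 8.18, 8.51, 8.03, 7.83 and 7.83, a difference of -1.16 (SE 0.16, adjusted p = 1.44e-05). Both of these genes were lowest in the 2 samples of set 3, and in set 1 alone the differences were -1.10 and -1.14.

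Cyp2d26 differed by -0.89 (SE 0.14, adjusted p = 7.04e-05) and Cyp2d22 by -1.05 (SE 0.25, adjusted p = 0.00329), both without overlap. Of the other Cyp4f members, Cyp4f13 fell by 0.96 (SE 0.25) and Cyp4f14 rose by 0.88 (SE 0.30), both with overlap. The rise of Cyp4f14 was seen in set 1, at 5.92, 5.78 and 6.05 against 4.73, 5.12 and 5.06 untreated, while the 2 DEN samples of set 3, at 4.37 and 4.68, lay below every untreated DKO sample. Cyp2c23, which makes epoxides of arachidonic acid, differed by -1.01 (SE 0.23, adjusted p = 0.00294), with 9.36, 9.05 and 9.26 untreated and 8.81, 8.22, 8.45, 7.96 and 7.91 after DEN. Cyp1a2 read 9.31, 9.14 and 9.21 untreated, all in set 1. After DEN it read 8.06, 8.21 and 8.16 in set 1 and 6.00 and 6.18 in set 3. Every DEN sample was lower, by about 1 unit within set 1. Set 3 holds no untreated DKO sample, so the distance of about 3 units there mixes DEN with the set. The fitted difference was -1.40 (SE 0.43, adjusted p = 0.0206) and that of set 1 alone -1.07 (adjusted p = 1.01e-05).

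Of the 9 Cyp2c members tested, 4 rose and 1, Cyp2c23, fell. Cyp2c38 rose from 2.89, 3.00 and 3.06 to 3.86, 4.43, 4.29, 3.61 and 3.75 (adjusted p = 0.000258); all untreated samples lay under the filter on dim genes, so no size is given for this rise. Cyp2c39, which hydroxylates retinoic acid, rose by 0.92 (SE 0.23, adjusted p = 0.00531) and Cyp2c67 by 0.94 (SE 0.23, adjusted p = 0.00459). No sample of these 3 genes overlapped between the groups. Of the 5 Cyp3a members tested, Cyp3a11 rose by 0.63 (SE 0.17, adjusted p = 0.0102) and Cyp3a25 by 0.68 (SE 0.18, adjusted p = 0.00697).

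Calls that ended when 1 sample was left out were those of Cyp1a2, Cyp2a22, Cyp2c55, Cyp2u1, Cyp3a11, Cyp4a31, Cyp4f13 and Cyp4f14, with adjusted p up to 0.0659, 0.131, 0.103, 0.151, 0.092, 0.113, 0.0673 and 0.141 respectively, each without untreated DKO replicate 1 or, for Cyp2a22 and Cyp2u1, without untreated DKO replicate 2. Without either of these samples 11 members were called. Cyp2c55 stood at 0.60 in set 1 alone (adjusted p = 0.0608). With Xist as a covariate Cyp2u1 (0.0704), Cyp4a31 (0.0969) and Cyp4f14 (0.0652) were not called. Neutrophil and myeloid precursor markers averaged 6.68 to 7.53 log2 on the untreated DKO arrays and 5.08 to 6.33 on the DEN DKO arrays, with 4 of 6 lower, and endothelial markers 6.98 to 7.11 and 6.12 to 6.35, with 5 of 6 lower; their part in the P450 values was not tested.

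**Figure D3:**
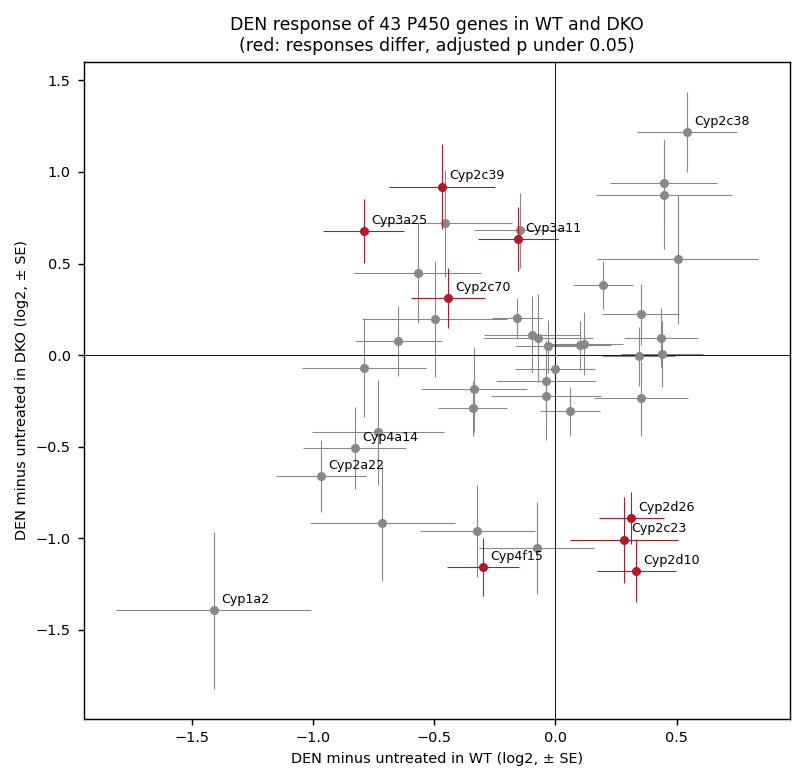
Difference between DEN and untreated samples in DKO (vertical axis, log2) against that in WT (horizontal axis, log2) for the 43 P450 genes tested; bars are SE, and red points are the 8 genes whose responses differed at an adjusted p under 0.05. The labelled Cyp2d10, Cyp2d26 and Cyp2c23 lie at the lower right and Cyp3a25, Cyp2c39, Cyp2c70 and Cyp3a11 at the upper left, while Cyp1a2 lies at the lower left, at -1.41 and -1.40.

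The response to DEN differed between DKO and WT for 8 of 43 members, or 18.6%, where 9.91% of all genes were called (1.36% higher, 8.54% lower). In DKO minus WT, Cyp2d10 (-1.51, SE 0.24, adjusted p = 0.000408), Cyp2d26 (-1.21, SE 0.20, adjusted p = 0.000505), Cyp2c23 (-1.29, SE 0.32, adjusted p = 0.0118) and Cyp4f15 (-0.86, SE 0.22, adjusted p = 0.0124) were lower, where DEN in WT gave 0.33, 0.31, 0.28 and -0.30, none of them called. Cyp3a25 (1.47, SE 0.24, adjusted p = 0.000573) and Cyp2c39 (1.39, SE 0.32, adjusted p = 0.0066) were higher, where DEN in WT gave -0.79, a called fall, and -0.47, not called. Cyp3a11 (0.79, SE 0.24, adjusted p = 0.0362) and Cyp2c70 (0.76, SE 0.22, adjusted p = 0.0307) were also higher in this difference. For Cyp1a2 it was 0.01 (SE 0.59, 95% interval -1.23 to 1.26).

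Untreated WT replicate 3, the only untreated sample of set 2, read 7.62 for Cyp2d10 and 10.48 for Cyp2d26, against 9.42 to 9.50 and 11.27 to 11.37 in the other two. Without it, 4 members were called in place of 8; Cyp2c23, Cyp2c70, Cyp3a11 and Cyp4f15 lost their calls (adjusted p = 0.0596, 0.154, 0.182 and 0.0968), and Cyp2d10, Cyp2d26, Cyp2c39 and Cyp3a25 kept theirs. In set 1 alone, Cyp2d10 stood at -1.11, Cyp2d26 at -0.88, Cyp3a25 at 1.22 and Cyp2c39 at 1.34, while Cyp2c23 (-0.86), Cyp4f15 (-0.51), Cyp3a11 (0.37) and Cyp2c70 (0.43) were not called. With Xist as a covariate the same 4 kept their calls, and Cyp2c23 (adjusted p = 0.0741), Cyp2c70 (0.122), Cyp3a11 (0.098) and Cyp4f15 (0.0661) did not. Centring each array on its median gave 2 higher and 5 lower in place of 4 and 4, and centring on the genes tested 6 and 4, with shifts of all genes of -0.12 and 0.13.

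Before any treatment, DKO differed from WT in Cyp2c39 and Cyp3a25, both lower, and in no member upward. These 2 of 43 are 4.65%, where 1.11% of all genes were called (0.865% higher, 0.244% lower). Cyp2c39 read 10.96, 11.03 and 10.57 in WT and 9.65, 9.62 and 9.52 in DKO, a difference of -1.25 (SE 0.25, adjusted p = 0.0104). Cyp3a25 read 9.72, 9.97 and 9.82 in DKO, below every untreated WT sample, a difference of -0.86 (SE 0.19, adjusted p = 0.022). The later rise of both genes after DEN in DKO thus started from a lower level. That rise and the difference of the responses rest on the same 3 untreated DKO arrays, so they are not independent of these 2 calls. Each call ended without any of 3 of the 6 samples (adjusted p up to 0.0899 for Cyp2c39, without WT replicate 2, and 0.13 for Cyp3a25, without WT replicate 1), and with Xist as a covariate that of Cyp3a25 did (0.0791) and that of Cyp2c39 did not (0.0476). Members called numbered 0 without WT replicate 1 or DKO replicate 3, 1 without WT replicate 2 or DKO replicate 1, and 4 without WT replicate 3. Neutrophil and myeloid precursor markers averaged 4.95 to 5.07 in untreated WT and 6.68 to 7.53 in untreated DKO. Pericentral hepatocyte markers averaged 7.26 to 7.93 and 6.90 to 7.04, with 2 of 6 lower, Oat at -1.41 (SE 0.23, adjusted p = 0.00126) and Slc1a2 at -2.04 (SE 0.38, adjusted p = 0.00514). The part of either list in the P450 values was not tested.

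**Figure D4:**
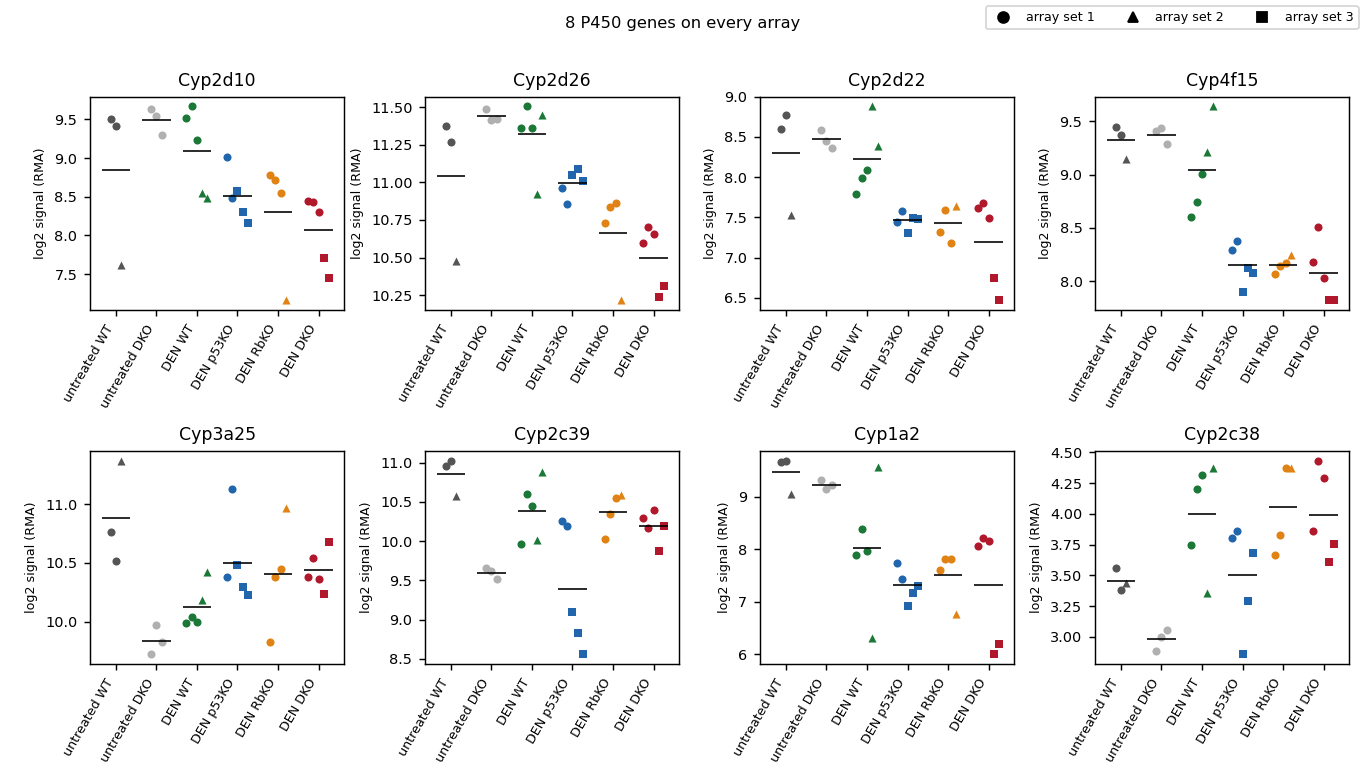
Log2 signal of 8 P450 genes on every array, 1 panel per gene with its own axis that does not start at 0; circles, triangles and squares are array sets 1, 2 and 3, and the bar is the group mean without adjustment for set. Cyp2d10, Cyp2d26, Cyp2d22 and Cyp4f15 step down from DEN WT to the DEN groups lacking a gene, Cyp3a25 and Cyp2c39 are low in untreated DKO, and DEN WT replicate 5 of Cyp1a2 sits at 9.57 among the untreated samples.

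After DEN, the livers lacking Rb, p53 or both were set against WT livers after DEN; these comparisons share the 5 DEN WT arrays, and none is independent of the others. Cyp2d genes were among those lower in each. Of the 7 Cyp2d members tested, 5 were called lower in DKO, 3 in RbKO and 2 in p53KO, and all 7 had a difference below 0 in each, with medians of -0.60, -0.33 and -0.45 where all genes had medians of -0.03, -0.04 and -0.01. Over all members, 2 were called higher and 7 lower in DKO, 20.9% beside 11.8% of all genes (2.69% higher, 9.14% lower). In RbKO 1 was higher and 5 were lower, 14% beside 11.4% of all genes (5.23% higher, 6.13% lower). In p53KO 4 were higher and 2 lower, 14% beside 1.78% of all genes (0.708% higher, 1.07% lower).

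The WT samples read 9.51, 9.67, 9.23, 8.55 and 8.48 for Cyp2d10. The p53KO samples read 9.02, 8.48, 8.57, 8.31 and 8.16, the RbKO samples 8.79, 8.71, 8.54 and 7.17, and the DKO samples 8.44, 8.43, 8.30, 7.71 and 7.44. Every DKO sample lay below every WT sample, while p53KO and RbKO overlapped WT through the 2 WT samples of set 2. The differences from WT were -1.32 (SE 0.16, adjusted p = 3.7e-05) in DKO, -0.99 (SE 0.15, adjusted p = 0.00131) in RbKO and -0.75 (SE 0.17, adjusted p = 0.0276) in p53KO, and in set 1 alone -1.08, -0.79 and -0.72.

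Cyp2d26 read 11.36, 11.51, 11.36, 10.92 and 11.45 in WT, 10.73, 10.83, 10.87 and 10.22 in RbKO, and 10.59, 10.70, 10.65, 10.24 and 10.31 in DKO. Neither group overlapped WT, and the differences were -0.73 (SE 0.12, adjusted p = 0.00137) in RbKO and -0.97 (SE 0.13, adjusted p = 9e-05) in DKO. In p53KO, at 10.86 to 11.09, it differed by -0.45 (SE 0.14, adjusted p = 0.101), which did not pass.

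Cyp2d22 was lower in RbKO and DKO, at -0.78 in each (SE 0.22 and 0.23, adjusted p = 0.0222 and 0.0298). WT gave 7.80 to 8.88 for this gene, RbKO 7.18 to 7.64 and DKO 6.47 to 7.68, with no overlap. Cyp2d9, the steroid 16alpha-hydroxylase of male mouse liver, was lower in p53KO (-0.94, SE 0.18, adjusted p = 0.00995) and in DKO (-0.60, SE 0.17, adjusted p = 0.0196), each without overlap, with 5.62 to 6.62 in WT, 4.68 to 5.17 in p53KO and 5.08 to 5.55 in DKO; in RbKO, at 5.49 to 5.89, it differed by -0.33 (SE 0.16, adjusted p = 0.187). Cyp2d40 was called in DKO (-0.59, SE 0.19, adjusted p = 0.0436), with overlapping samples, and not in RbKO or p53KO. Cyp2d13 and Cyp2d11 were called in none of the 9 comparisons. The promoter of Cyp2d11 holds the shared run, but this gene averaged 3.57 log2 over all arrays (3.17 to 4.12). That is close to the filter on dim genes, where a fall can hardly be seen, so its lack of a call says little. Whether the run has a part in the Cyp2d values was not tested.

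Among the 4 Cyp4f members tested, Cyp4f15 was lower in RbKO (-0.85, SE 0.14, adjusted p = 0.00131) and in DKO (-0.72, SE 0.15, adjusted p = 0.00245). It read 8.61, 8.75, 9.01, 9.21 and 9.64 in WT and 8.06, 8.14, 8.18 and 8.24 in RbKO, and the p53KO samples, at 7.90 to 8.37, lay below every WT sample too, with a difference of -0.57 (SE 0.16, adjusted p = 0.0614). Cyp4f14, which hydroxylates vitamin E and leukotriene B4, was lower in RbKO (-1.08, SE 0.26, adjusted p = 0.00958), at 4.36, 5.15, 4.96 and 4.83 against 5.39 to 6.82 in WT. In DKO the same gene split by set, with 5.92, 5.78 and 6.05 in set 1 and 4.37 and 4.68 in set 3, and was not called against WT.

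A smaller group of members was higher after DEN in the groups labelled as lacking Rb, p53 or both. Cyp2r1, which 25-hydroxylates vitamin D, was called in all 3 comparisons, at 1.06 (SE 0.28, adjusted p = 0.0484) in p53KO, 0.81 (SE 0.24, adjusted p = 0.0313) in RbKO and 0.91 (SE 0.26, adjusted p = 0.0234) in DKO. The WT samples read 3.85, 3.40, 3.78, 3.38 and 3.51 and the p53KO samples, all above them, 4.16, 4.43, 4.58, 4.44 and 4.22. RbKO gave 3.87, 4.06, 3.90 and 5.52, also above WT, and DKO 4.30, 4.83, 4.24, 4.31 and 3.57, the last within the WT range. The RbKO value rested on replicate 4, the sample of set 2: in set 1 alone it was 0.26 (adjusted p = 0.522), and the call ended without that sample (0.476). The gene is near the filter, and its calls in p53KO ended without any of 8 of the 10 samples (adjusted p up to 0.143, without p53KO replicate 2) and in DKO without DKO replicate 2 (0.0964).

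Cyp3a25 was higher in p53KO (0.71, SE 0.18, adjusted p = 0.0402) and DKO (0.61, SE 0.17, adjusted p = 0.0182), both overlapping WT. It read 10.38, 11.13, 10.48, 10.30 and 10.22 in p53KO, where replicate 2 stood above the rest, and the p53KO call ended without that sample (0.29). Cyp2c55 was higher in p53KO at 7.76, 7.65, 7.72, 7.68 and 7.49, above every WT sample (6.13, 7.48, 6.58, 5.27 and 5.30), a difference of 0.95 (SE 0.21, adjusted p = 0.021). Cyp2j9, of the subfamily that makes epoxides of arachidonic acid, was higher in p53KO by 0.65 (SE 0.15, adjusted p = 0.0295), without overlap.

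Cyp2c23 was called lower in DKO and not in RbKO or p53KO (-0.82, SE 0.22, adjusted p = 0.0163), overlapping WT and ending without WT replicate 2 (0.0513). Leaving out p53KO replicate 2 ended every P450 call in p53KO against WT, with adjusted p up to 0.202 for Cyp2d10, 0.174 for Cyp2j9, 0.0998 for Cyp2c55 and 0.0685 for Cyp2d9. Without p53KO replicate 1 there was 1 call and without WT replicate 2 there were 3, and set 1 holds only 2 p53KO samples. Without RbKO replicate 4, 3 members were called in RbKO, and Cyp2d22 (0.0821) and Cyp4f14 (0.058) were not. In DKO, the calls of Cyp2d22 (0.0524), Cyp2d9 (0.0555) and Cyp2d40 (0.178) ended without DKO replicate 3, WT replicate 2 and DKO replicate 2, and those of Cyp2d10, Cyp2d26, Cyp3a25 and Cyp4f15 stayed whichever sample was left out. In set 1 alone, DKO stood at -0.37 for Cyp2d22 (adjusted p = 0.0606), -0.49 for Cyp2c23 (0.082), -0.57 for Cyp2d40 (0.106) and 0.42 for Cyp3a25 (0.129), and p53KO at 0.62 for Cyp2r1 (0.102). With Xist as a covariate, the calls of Cyp2d22 in RbKO (0.06) and DKO (0.0637) and those of Cyp2j9 (0.0546) and Cyp3a25 (0.0695) in p53KO ended. Endothelial markers averaged 6.57 to 6.99 log2 on the DEN WT arrays and 6.12 to 6.35 on the DEN DKO arrays, with 4 of 6 lower, and their part in the P450 values was not tested.

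DKO was then set against each single deletion after DEN. Against p53KO, 4 of 43 members were lower and none higher (9.3%, beside 1.87% of all genes, 0.357% higher and 1.51% lower). These were Cyp2c55 (-0.74, SE 0.17, adjusted p = 0.0207), Cyp2d10 (-0.56, SE 0.14, adjusted p = 0.0389), Cyp2d26 (-0.52, SE 0.12, adjusted p = 0.0201) and Cyp2j9 (-0.50, SE 0.13, adjusted p = 0.0384). Cyp2c55 and Cyp2d26 did not overlap: Cyp2c55 read 6.81, 6.71, 6.78, 7.08 and 7.09 in DKO, under 7.49 to 7.76 in p53KO. In set 1 alone Cyp2d26 was -0.26 (adjusted p = 0.167) and Cyp2d10 -0.36 (0.21). Each of the 4 calls ended without at least 2 of the 10 samples, with adjusted p up to 0.0764 for Cyp2c55, 0.174 for Cyp2d10, 0.0873 for Cyp2d26 and 0.121 for Cyp2j9. There was 1 call without p53KO replicate 1 or 3 or DKO replicate 4, and there were 2 without p53KO replicate 2 or DKO replicate 3 or 5.

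Against RbKO, the 1 member called was Cyp3a13, a Cyp3a gene also known from the intestine, higher in DKO by 1.37 (SE 0.34, adjusted p = 0.0436), 2.33% of the members beside 1.03% of all genes (0.144% higher, 0.884% lower). It read 6.40, 6.81, 6.86 and 8.17 in RbKO and 8.05, 7.87, 7.96, 8.64 and 8.91 in DKO, where RbKO replicate 4, of set 2, lay among the DKO samples. The call ended without any of 8 of the 9 samples (adjusted p up to 0.154, without RbKO replicate 1). No Cyp2d member was called between DKO and RbKO, where the estimates ran from -0.56 (SE 0.20) for Cyp2d40 to 0.04 (SE 0.16) for Cyp2d11.

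The receptors and transcription factors that act on P450 genes, and the enzymes that supply electrons and heme, were read beside the members. After DEN, DKO was lower than WT in 4 of the 17 regulators tested and higher in none, 23.5% beside 11.8% of all genes (9.14% lower): Nr1i3, the gene of CAR (-1.29, SE 0.25, adjusted p = 0.00162), Nr1i2, that of PXR (-0.76, SE 0.16, adjusted p = 0.00365), Hnf4a (-0.66, SE 0.20, adjusted p = 0.0316) and Rxra, the partner of CAR, PXR and PPARalpha (-0.48, SE 0.14, adjusted p = 0.0282). The list's median was -0.18 against -0.03 over all genes. RbKO was lower than WT in the same 4, 23.5% beside 11.4% of all genes, with Nr1i3 at -0.79 (SE 0.23) and Nr1i2 at -0.66 (SE 0.15), and p53KO in Rxra alone (-0.59, SE 0.15). Set 1 alone ended the calls of Rxra in DKO (-0.27, adjusted p = 0.0764) and of Nr1i3 (-0.52, 0.126) and Hnf4a (-0.40, 0.0864) in RbKO, and gave Hnf4a in DKO at -0.40 (0.0433). Ahr was called in none of these 3. Before treatment, Nr1i3 in DKO stood at -0.82 against WT (SE 0.29, adjusted p = 0.204), not called. Set 1 alone gave it at -1.13 (adjusted p = 0.00256), beside -1.01 after DEN. Nr1i2, Hnf4a and Rxra were not called between the untreated groups in either fit.

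Of the 12 redox and heme genes, 7 were lower in DKO than in WT after DEN and none higher, 58.3% beside 11.8% of all genes (9.14% lower). These were Alad, Urod, Cpox and Fech of heme synthesis, Hmox1, which breaks heme down, and Cyb5a and Cyb5r3, cytochrome b5 and its reductase; Alad differed by -1.18 (SE 0.25, adjusted p = 0.00318) and Cyb5a by -0.43 (SE 0.12, adjusted p = 0.0244). The median was -0.55 against -0.03 over all genes. In set 1 alone, Alad stood at -0.59 (adjusted p = 0.00311), Cpox and Fech kept their calls, and Cyb5a (-0.28, 0.0747), Cyb5r3 (-0.38, 0.0761), Urod (-0.32, 0.099) and Hmox1 (-0.45, 0.0683) were not called. Alas1, the rate-limiting enzyme of heme synthesis in liver, was the only one of them called in untreated DKO against WT, at -1.94 (SE 0.38, adjusted p = 0.00872).

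In DKO, DEN itself was followed by lower values in 8 of the 17 regulators, where 16.5% of all genes were called lower, among them Ppara (-1.46, SE 0.22, adjusted p = 3.64e-05), Hnf4a (-1.37, SE 0.21, adjusted p = 6.1e-05) and Stat5b, which carries the growth hormone signal (-1.14, SE 0.18, adjusted p = 7.28e-05), and by a higher value in Cebpb (0.54, SE 0.18, adjusted p = 0.0294). PPARalpha targets other than P450 were lower in 4 of 6, Cpt1a at -1.53 (SE 0.20) and Ehhadh at -1.45 (SE 0.21), while of the Cyp4a members Cyp4a31 was lower (-0.92, SE 0.32, adjusted p = 0.0391) and Cyp4a14 (-0.51, SE 0.22, adjusted p = 0.113) was not called. In WT, 2 regulators were lower after DEN, where 1.91% of all genes were, Ghr (-0.95, SE 0.16, adjusted p = 0.0011) and Hnf4a (-0.76, SE 0.20, adjusted p = 0.0309). With set 1 alone, 7 of the 8 regulators lower in DKO were lower in WT too: Ghr (-0.72), Hnf4a (-1.36), Nr1i2 (-0.77), Nr1i3 (-1.09), Ppara (-0.80), Nr0b2 (-1.05) and Stat5b (-0.55). The response of DKO differed from that of WT in 1 of the 17 regulators, Stat5b (-0.77, adjusted p = 0.0495), where 9.91% of all genes were called. Nqo1, an AHR and NRF2 target, was higher after DEN in WT by 1.03 (SE 0.15, adjusted p = 0.000215); of the other AHR targets tested, Tiparp (0.07, adjusted p = 0.953) and Aldh3a1 (-0.11, 0.737) were not called, while Cyp1a1 stayed below the filter and Cyp1a2 was lower.

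**Figure D5:**
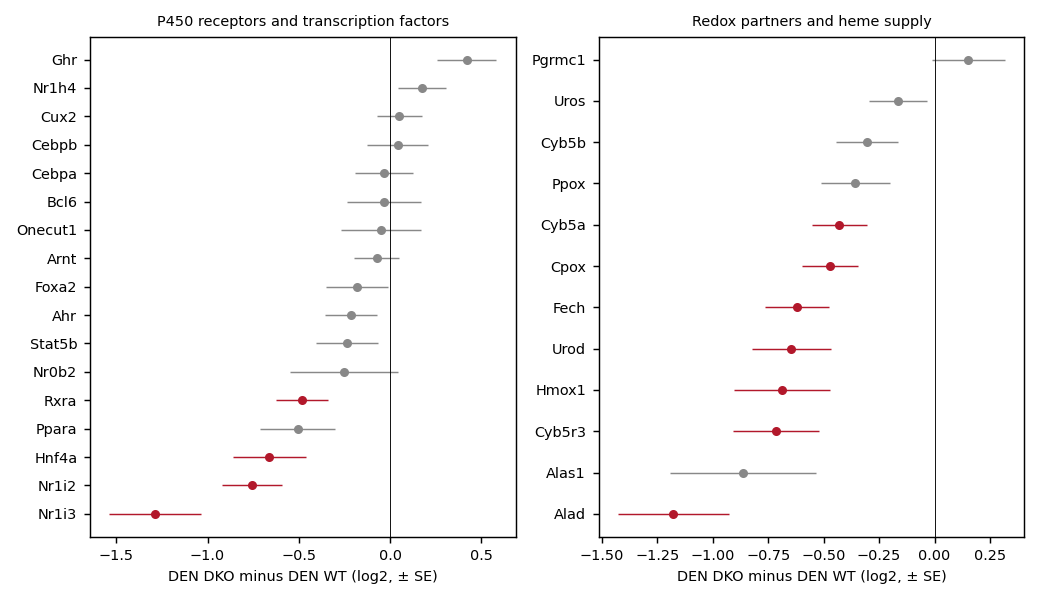
Log2 difference between DEN DKO and DEN WT, with SE, for 17 regulators of P450 genes (left) and 12 redox and heme genes (right); red points had an adjusted p under 0.05. All 4 red regulators and all 7 red redox and heme genes lie below 0, from -1.29 for Nr1i3 and -1.18 for Alad.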

How the data were processed

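The authors deposited log2 signals from RMA, which corrects background, brings arrays to a common distribution and summarises each probe set. Per the submitters' processing notes, Affymetrix Expression Console 1.1 was used. The genome build and whether all arrays were normalized together are not given in the sources used here. RNA was amplified and biotin-labelled, per the labels' protocols.

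Of 35555 probe sets, 21789 carried 1 gene symbol in the platform annotation, and those with several (1620) or unlisted were left out of the tests. The probe set with the highest mean stood for a gene, and genes under the 20th percentile (3.33 log2) were left out. Group means and a fixed array-set term were fitted to 25 arrays (17 residual degrees of freedom) with limma 3.58.1 (lmFit, eBayes) in R 4.3.3. Tests were two-sided, with Benjamini-Hochberg adjustment over 15951 genes. On simulated data for DKO against WT after DEN, with 15951 genes, 95% of changes of 1 log2 and 100% of 2 log2 were recovered, with 12 false calls each. This does not cover changes under 1 log2, which many calls here are, or comparisons with smaller groups. The number of arrays limits the precision.

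The members, the lists of regulators, redox genes and cell type markers, and the comparisons were chosen with earlier results of these data known. Called members were named in every comparison. Where over 10 were called, the text gives values for the 10 largest with the same sign in set 1 and for members described elsewhere. Replicate numbers follow the order of the records. Other scalings, filters, set terms, an Xist covariate and left-out arrays were tried. Trp53 was not analysed here. Promoters were matched by gene ID, and motifs searched on both strands.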

Additional observations from a re-analysis of the deposited data

Results flagged for a closer look

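In groups of 4 or 5 arrays, 6 values stood apart from the rest of their group among 100 groups examined (25 genes in 4 groups). Chance gives about 1 in 20 where all samples of a group are alike. The values here were not adjusted for set, the groups mix sets and the genes share arrays, so that rate does not apply directly. Cyp3a25 was 11.13 in DEN p53KO replicate 2 and 10.22 to 10.48 in the other 4. Cyp2d10 was 7.17 in DEN RbKO replicate 4, of set 2, and 8.54 to 8.79 in the others. Cyp2r1 was 5.52 in the same sample and 3.87 to 4.06 in the others. Cyp2d26 was 10.92 in DEN WT replicate 4, also of set 2, and 11.36 to 11.51 in the others. Cyp2u1, a fatty acid hydroxylase, was 4.70 in that sample and 4.24 to 4.34 in the others. Cyp4f13 was 5.93 in DEN RbKO replicate 3 and 5.44 to 5.51 in the others.

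The response to DEN differed between DKO and WT by limma in 8 genes, given as DKO minus WT in log2: Cyp2d10 at -1.51, Cyp2c23 at -1.29, Cyp2d26 at -1.21, Cyp4f15 at -0.86, Cyp2c70 at 0.76, Cyp3a11 at 0.79, Cyp2c39 at 1.39 and Cyp3a25 at 1.47.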

How the results depend on the processing

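No alternative reversed the sign of a called difference. Without a set term the called members numbered 0 (DEN in WT), 10 (DEN in DKO), 4 (difference of the responses), 1 (DKO against WT untreated), 2 (RbKO against WT), 0 (DKO against p53KO) and 0 (DKO against RbKO); all 32 named calls lost there kept their sign. With the set as a random block they numbered 3 for DEN in WT, 1 for DKO against p53KO and 0 for DKO against RbKO. In set 1 alone there were 11 for DEN in WT, 6 for DKO against WT untreated and 3 for DKO against RbKO, and without set 2 there were 5 for DKO against WT untreated, 1 for p53KO against WT, 8 for DKO against p53KO and 2 for DKO against RbKO. Centring each array on its median gave 3 for DEN in WT, and on the genes tested, a setting chosen after seeing the data, 2 for DKO against p53KO. With Xist as a covariate there were 3 for DEN in WT and 1 for DKO against WT untreated. The causes were not tested. Of the 58 named calls, 56 held without a filter, 54 of 54 with a filter at the 40th percentile and 58 with the mean of all probe sets.

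Leaving out 1 array at a time gave 1 to 6 called members for DEN in WT, 11 to 17 for DEN in DKO, 4 to 10 for the difference of the responses, 0 to 4 for DKO against WT untreated, 0 to 6 for p53KO, 3 to 8 for RbKO and 7 to 12 for DKO against WT after DEN, 1 to 3 for DKO against p53KO and 0 to 1 for DKO against RbKO; 37 of the 58 named calls ended in at least 1 of these fits. No paired analysis was possible because the replicate numbers are only names given in the order of the records. Array signal bounds what can be read for the 15 dim members, and groups of 3 to 5 arrays limit small differences.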

Other observations

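Probe sets that carry several P450 symbols were left out of the tests above and can be read beside the single-gene ones. The probe set shared by Cyp3a59, Cyp3a57 and Cyp3a25 gave -0.73 (SE 0.20, adjusted p = 0.0335 by limma) for DEN in WT, 0.72 (SE 0.21, adjusted p = 0.0136) for DEN in DKO and 1.45 (SE 0.28, adjusted p = 0.00217) for the difference of the responses, beside -0.79, 0.68 and 1.47 for the probe set of Cyp3a25 alone. The one shared by Cyp4a32, Cyp4a31 and Cyp4a10, fatty acid hydroxylases, was lower after DEN in WT (-0.79, SE 0.17, adjusted p = 0.00822). It was also lower after DEN in DKO (-0.745, adjusted p = 0.0045), and the responses differed by 0.04 (SE 0.25). After DEN it was lower in DKO than in WT (-0.72, SE 0.17, adjusted p = 0.00698), where Cyp4a31 and Cyp4a10 alone gave -0.66 and -0.79 and were not called. Between the untreated groups the shared probe set already stood at -0.77 in DKO (adjusted p = 0.0572), not called, and at -0.97 in set 1 alone (adjusted p = 0.00356). The one shared by Cyp2a5 and Cyp2a4, of the coumarin and steroid hydroxylases, was lower in untreated DKO than in untreated WT (-1.73, SE 0.40, adjusted p = 0.0286). After DEN it was also lower than in WT in RbKO (-1.15, adjusted p = 0.0235) and in DKO (-1.22, adjusted p = 0.0226), and not called in p53KO (-0.695, adjusted p = 0.363).

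Left-out P450 genes moved further in some comparisons than any member: Cyp2b9 was at -4.48 (SE 1.15, adjusted p = 0.0061) and Cyp2b13 at -3.37 (SE 0.76, adjusted p = 0.00215) for DEN in DKO, while the Cyp2b members Cyp2b19 and Cyp2b23 were called in none of the 9 comparisons.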
